A study of Mus musculus with 42 samples.

Results

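The values described here are those of 59 collagen and extracellular matrix genes of mouse TA muscle (tibialis anterior, a lower hindlimb muscle), out of 13809 genes measured. They are the 35 genes in the data whose symbols name a collagen alpha chain, together with 24 matrix glycoproteins, proteoglycans, cross-linking enzymes, metalloproteinases, inhibitors and elastic fibre or tendon proteins chosen by name. The choice was made by symbol and name, with earlier results of these data known. All 59 could be tested in both sets, having come to a value of 1 or more somewhere in each, and 38 were at 1 or more in every library of set 1 and 37 in every library of set 2.

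In muscle, the matrix surrounds each fibre, each fascicle and the whole muscle, and carries the force of contraction to the tendon. Fibroblasts and fibro-adipogenic progenitors secrete most of the fibrillar collagens, which are folded and hydroxylated in the cell, assembled outside it and cross-linked by lysyl oxidases. Each fibre also rests on a basement membrane of collagen IV and laminin, to which collagen VI microfilaments link the fibrillar matrix, and metalloproteinases and their TIMP inhibitors govern its turnover.

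RNAseq was performed on TA muscle of male mice aged 4 months, with 42 libraries in 2 sets that are compared only within a set. Set 1 held WT mice and 2 transgenic lines. Sesn1SkM-Tg mice express human Sesn1, a stress-inducible metabolic regulator, in skeletal muscle from the MCK promoter, and in Sesn2SkM-Tg mice a Tet-regulated human Sesn2 is switched on by an MCK-tTA construct. The paper used littermates without a transgene as controls of each line. Set 1 holds the same WT libraries for both lines, and the labels do not say of which line its WT mice were littermates. Set 2 held WT mice and Sesn1KO mice, which lack Sesn1. Muscles were basal (untreated) or taken 3 days after the hindlimb was immobilized with rigid sticks and a bandage, and set 2 also held WT muscles taken 3 days after a segment of the sciatic nerve was removed. Each group had 4 libraries, except 3 in the immobilized WT group of set 1 and 3 in the immobilized Sesn1SkM-Tg group. The labels do not say that the libraries of a group came from separate animals, so the p-values measure the spread between libraries, which may be in part technical.

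The values are linear normalized counts, and those of a library summed to between 722430 and 1276769. Sums were lower after treatment, at 722430 to 811541 in denervated muscle and 766506 to 1126678 in the immobilized groups, against 1007830 to 1276769 in basal muscle. The number of reads behind them is unknown, so no counting error is given. Every transgenic library held more of its transgene's gene than any WT library of its set. Sesn1 was at 23.0 to 77.6 in Sesn1SkM-Tg against 12.4 to 22.1 in WT muscle, and Sesn2 at 6.54 to 14.5 in Sesn2SkM-Tg against 1.86 to 3.39. In Sesn1KO muscle, Sesn1 was read at 8.41 to 10.05 in the basal state, below the 22.5 to 29.7 of WT muscle, but at 19.4 to 37.3 after immobilization, which overlapped the 30.7 to 53.1 of immobilized WT muscle. Which part of Sesn1 is deleted was not given in the sources used here, so its values there do not check the labels. Some libraries stood apart from their groups. Replicate 3 of the basal WT muscle of set 1 had Col1a1 at 307, and replicate 3 of immobilized Sesn1SkM-Tg muscle had the highest value of its group in 42 of the 59 genes. Replicate 4 of the immobilized WT muscle of set 2 was highest in 42, and replicate 1 of immobilized Sesn1KO muscle in 40. The Sesn1SkM-Tg group has 3 libraries and these other groups 4. How often these libraries were highest over all genes is not given here, so a shift of the matrix genes alone cannot be read from these counts.

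Levels can be compared between genes only per length. Per kilobase of exon, Sparc, a collagen-binding glycoprotein, had the highest level of the 59 genes in basal WT muscle, with 47.7 ± 13.5 normalized counts in set 1 and 53.3 ± 3.67 in set 2 (SD, n = 4). Decorin (Dcn), the proteoglycan that coats collagen fibrils, followed at 28.7 ± 7.48 and 41.2 ± 7.33. Of the fibrillar chains, Col1a1 was at 20.02 ± 17.8 in set 1 and 15.6 ± 6.97 in set 2, and Col3a1 at 16.8 and 15.7, which differ by less than the spread of their libraries.

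Between 14 and 36 of the 59 genes were called in each of the 6 treatments, with unlike directions, and 7 were called in none. A gene was called where its adjusted p (limma on log2(value + 1), Benjamini-Hochberg over all genes tested) was under 0.05 and its absolute log2 fold change at least 0.25. After denervation 30 of the 59 genes were called, 7 higher and 23 lower, where 55.5% of the 13629 genes tested were called, 27.8% higher and 27.7% lower. Their median log2 fold change was -0.49, against -0.03 for all genes. After immobilization of WT muscle, 24 were called in set 1 (16 higher, 8 lower; 29.3% of all genes called, 14.9% higher and 14.5% lower) with a median of 0.41. In set 2, 14 were called (7 higher, 7 lower; 33.9% of all genes, 16.2% higher and 17.7% lower) with a median of -0.13. In Sesn1SkM-Tg muscle 36 were called, 32 of them higher, where 34.7% of all genes were called and 18.2% higher, and the median was 0.89. In Sesn2SkM-Tg muscle 19 were called (10 higher, 9 lower; 30.7% of all genes, 15% higher and 15.7% lower) with a median of -0.08. In Sesn1KO muscle 18 were (6 higher, 12 lower; 37.1% of all genes, 17.2% higher and 19.9% lower) with a median of -0.21. All-gene medians lay between -0.03 and 0.00 in these 6 comparisons. The share of the 59 that was called lay below the share of all genes after denervation and in immobilized WT muscle of set 2 and Sesn1KO muscle. Denervated and immobilized WT muscle of set 2 were compared with the same basal libraries. After denervation all treated libraries were above the basal ones in 6 of the 59 and below in 23 (27.4% and 26.3% of all genes). In immobilized muscle they were in 15 and 7 in WT set 1 (16.9% each) and 5 and 8 in set 2 (16.2% and 16.3%). The numbers were 27 and 3 in Sesn1SkM-Tg (19.9% and 21.6%) and 9 and 11 in Sesn2SkM-Tg muscle (14.9% and 15.3%). In Sesn1KO muscle they were 2 and 5 (15.2% and 17.1%). A lack of overlap was thus common among all genes.

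**Figure D1:**
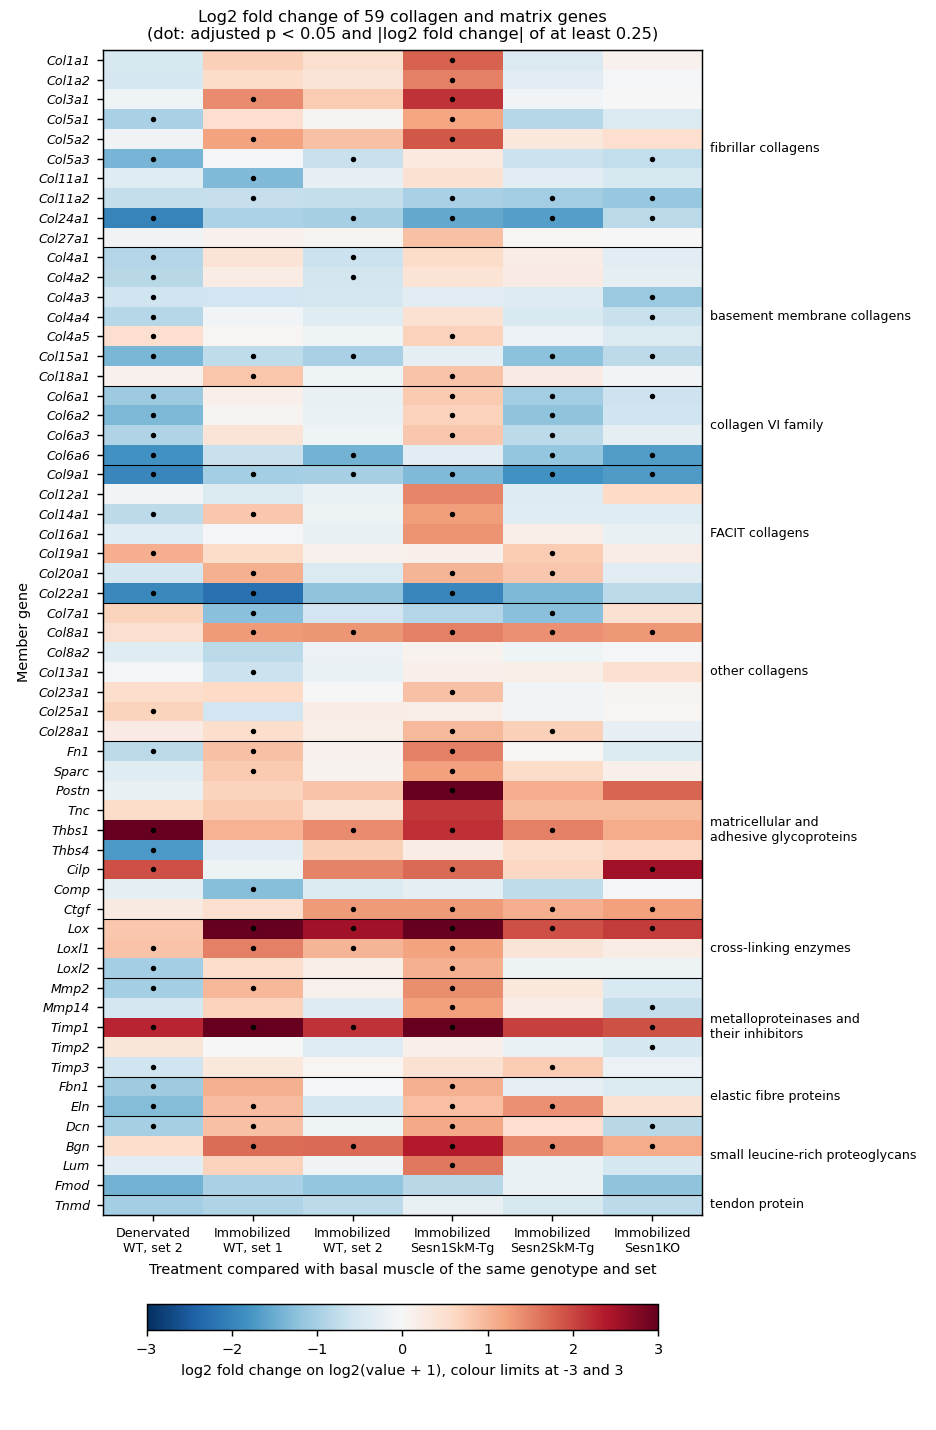
Log2 fold change, on the scale of log2(value + 1), of each of the 59 genes (vertical axis, by role) in 6 treatments against basal muscle (horizontal axis), with a dot where a gene was called. The column of denervated muscle holds 23 genes called lower, and that of immobilized Sesn1SkM-Tg muscle 32 called higher.

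These counts depended on single libraries. Without replicate 3 of the immobilized WT muscle of set 1 the 24 calls became 9 (6 higher, 3 lower), and without its replicate 2 they became 15 (12 higher, 3 lower). The 14 calls of WT muscle in set 2 became 9 without replicate 3 of its immobilized group, and the 36 of Sesn1SkM-Tg muscle became 20 (17 higher, 3 lower) without replicate 3 of its immobilized group. Rescaling each library to the same sum put the median of all genes at 0.35 after denervation, where 13 of the 59 were then called higher and 13 lower. In immobilized muscle that median was 0.28 in WT set 1 (22 higher, 2 lower), 0.25 in Sesn1SkM-Tg (40 and 4) and 0.26 in Sesn2SkM-Tg muscle (14 and 8). It was 0.08 in WT set 2 (10 and 5) and 0.06 in Sesn1KO muscle (6 and 8). The median of the 59 genes relative to that of all genes was -0.46 after denervation on either scaling, and 0.90 on either in Sesn1SkM-Tg muscle.

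Type I and type III collagens form the main fibrils of muscle, and neither chain of type I was called in any treatment but the immobilization of Sesn1SkM-Tg muscle. Col1a1 (chr11:94936224-94953042, GRCm38) encodes the alpha 1 chain of type I collagen. In set 1, the basal libraries in replicate order held 73.8, 65.9, 307 and 79.1 in WT, 74.4, 91.9996, 82.9 and 71.3 in Sesn1SkM-Tg and 66.2, 135, 54.7 and 89.9 in Sesn2SkM-Tg muscle. The immobilized ones held 79.5, 229 and 280.3, 105, 244 and 795 and 40.2, 147, 39.96 and 56.7. Immobilized Sesn1SkM-Tg muscle was above its basal group in all 3 libraries, and the WT groups overlapped because of the 1 basal library at 307. The log2 fold change was 1.76 (SE 0.59, adjusted p = 0.025) in Sesn1SkM-Tg muscle, 0.72 (adjusted p = 0.38) in WT and -0.42 (adjusted p = 0.6) in Sesn2SkM-Tg muscle. The call was lost without replicate 2 or 3 of the immobilized or replicate 1 or 4 of the basal Sesn1SkM-Tg muscle, with an adjusted p of up to 0.24.

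In set 2, Col1a1 was at 144, 92.02, 132 and 42.3 in basal, 127, 56.7, 113 and 354 in immobilized and 84.6, 51.1, 61.8 and 70.9 in denervated WT muscle. In Sesn1KO muscle its basal libraries held 56.3, 74.3, 344 and 110.2 and its immobilized ones 239, 117, 51.3 and 156. All of these groups overlapped, with log2 fold changes of -0.49 (adjusted p = 0.47) after denervation, 0.49 (adjusted p = 0.52) after immobilization of WT and 0.12 (adjusted p = 0.88) of Sesn1KO muscle. Col1a2, which joins Col1a1 in the type I trimer, followed it across libraries. On log2 values with group means removed, r was 0.98 over the 22 libraries of set 1 and over the 20 of set 2, given as a description. Col1a2 was called in Sesn1SkM-Tg muscle at 1.51 (adjusted p = 0.0076), though not without replicate 3 of the immobilized group (adjusted p = 0.088).

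Col3a1, the single chain of type III collagen, rose in 2 groups of set 1. It went from 146, 147, 247 and 118 in basal to 254, 458 and 647 in immobilized WT muscle and from 99.9, 163, 143 and 144 to 306, 678 and 1131 in Sesn1SkM-Tg muscle. Every immobilized library exceeded every basal one in both. In Sesn2SkM-Tg muscle the basal libraries, at 167, 194, 141 and 199, overlapped the immobilized ones at 133, 358, 102 and 150.4, of which 1 stood apart at 358. The log2 fold change was 1.41 (SE 0.398, adjusted p = 0.012) in WT muscle, a call lost without replicate 3 of the immobilized group (adjusted p = 0.095). It was 2.18 (SE 0.398, adjusted p = 0.00041) in Sesn1SkM-Tg and -0.08 (adjusted p = 0.9) in Sesn2SkM-Tg muscle.

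In set 2 Col3a1 was at 147, 153, 173 and 144 in basal, 259, 122, 216 and 661 in immobilized and 197, 158, 96.6 and 131 in denervated WT muscle. Sesn1KO libraries held 194, 183, 494 and 219 when basal and 396, 282, 136 and 258 when immobilized. All of these groups overlapped, and none was called, with 0.75 (adjusted p = 0.14) for immobilized WT, -0.12 (adjusted p = 0.81) for denervated WT and 0.01 (adjusted p = 0.99) for Sesn1KO muscle. Without replicate 2 of immobilized WT muscle, at 122, the value was 1.11 and called (adjusted p = 0.029). Col3a1 shares 141 exon bases with an overlapping gene, and the library kit does not mark strand, so reads of the pair cannot be told apart.

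Among the other 7 fibrillar chains, Col5a2, which helps to initiate type I fibrils, rose in immobilized WT muscle of set 1 (1.21, adjusted p = 0.015) and in Sesn1SkM-Tg muscle (1.86, adjusted p = 0.00063). The former was not called without replicate 2 or 3 of the immobilized group (adjusted p of up to 0.11). It lies 24.6 kb from Col3a1 on chromosome 1, on the opposite strand.

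The minor chain Col24a1 moved the other way. It was at 3.62, 5.64, 4.49 and 4.69 in basal, 2.86, 1.73, 0.241 and 3.56 in immobilized and 0.471, 0.3, 0.399 and 0.385 in denervated WT muscle of set 2, with no treated library as high as a basal one. The log2 fold change was -2.003 (SE 0.304, adjusted p = 9.6e-06) after denervation and -1.001 (adjusted p = 0.014) after immobilization. In Sesn1SkM-Tg muscle it went from 15.2, 7.59, 2.13 and 3.84 to 1.37, 1.11 and 1.58 (-1.53, adjusted p = 0.015). In Sesn2SkM-Tg muscle it went from 4.35, 1.65, 4.01 and 6.82 to 0.774, 0.185, 0.295 and 1.08 (-1.66, adjusted p = 0.0064), again with no overlap in either line, and in Sesn1KO muscle the change was -0.802 (adjusted p = 0.042). Leaving out 1 library ended the call of WT (replicate 3 of the immobilized group, adjusted p = 0.067) and that of Sesn1SkM-Tg muscle (replicate 1 of the basal or 2 of the immobilized group, up to 0.065). That of Sesn1KO muscle was kept only without replicate 3 of the basal or 1 of the immobilized group (up to 0.16 without the others). The Sesn1KO call was also lost with a pseudocount of 0.1, with libraries rescaled to the same sum and with quantile normalization.

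Col11a1 and Col11a2, minor chains that share fibrils with type I or II collagen, were low throughout. Col11a1 was at 2.46, 1.103, 16.04 and 2.55 in basal and 0.899, 0.856 and 0.704 in immobilized WT muscle of set 1, all 3 immobilized libraries below the basal ones. Its log2 fold change of -1.33 (SE 0.47, adjusted p = 0.037) lost its call without any of the 3 immobilized libraries or replicate 3 of the basal group, at 16.0 (adjusted p of up to 0.12). It was also not called with a pseudocount of 0.1, with libraries rescaled to the same sum or with only the compared groups fitted. Col11a2 was called lower in 4 of the 5 immobilization comparisons, at -0.69 (adjusted p = 0.026) in WT set 1, -0.98 (adjusted p = 0.0026) in Sesn1SkM-Tg, -1.04 (adjusted p = 0.00084) in Sesn2SkM-Tg and -1.14 (adjusted p = 0.006) in Sesn1KO muscle. The call of WT was lost without replicate 1 of the basal or replicate 2 or 3 of the immobilized group (adjusted p of up to 0.16). Col11a2 was also not called there with libraries rescaled to the same sum or with only the compared groups fitted. In Sesn1SkM-Tg muscle it went from 3.17, 3.39, 2.92 and 2.27 to 1.24, 0.928 and 0.812, and in Sesn1KO muscle from 1.82, 8.301, 3.33 and 4.54 to 1.58, 1.305, 1.25 and 1.005, with no overlap in either.

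Collagen IV and the associated collagens XV and XVIII build the basement membrane. Of these 7 chains, 5 fell and 1 rose after denervation, with a median log2 fold change of -0.84. With libraries rescaled to the same sum 2 fell and 1 rose, and the median was -0.38. The 1 that rose was Col4a5 (0.49, adjusted p = 0.047), which was not called without replicate 1, 3 or 4 of the basal or replicate 1 or 2 of the denervated group (adjusted p of up to 0.17). With a pseudocount of 0.1 or a replicate block it was not called either. Col15a1, a proteoglycan collagen of the basement membrane, was at 18.7, 24.7, 22.7 and 33.1 in basal, 10.3, 11.1, 7.105 and 7.33 in denervated and 12.9, 7.71, 9.44 and 21.1 in immobilized WT muscle of set 2. Each denervated library was below each basal one, and the 1 immobilized library at 21.1 lay among the basal values. Its log2 fold changes were -1.37 (adjusted p = 0.00011) and -0.97 (adjusted p = 0.0056), and in Sesn2SkM-Tg muscle, where it went from 28.9, 29.8, 23.9 and 25.2 to 11.3, 18.7, 8.66 and 7.64, -1.22 (adjusted p = 0.0015). Col4a3, a chain of the trimer best known from glomeruli, had its largest change in Sesn1KO muscle, from 3.21, 2.31, 1.69 and 3.09 to 0.423, 0.406, 0.806 and 0.905 (-1.12, adjusted p = 0.00016). Its fall after denervation (-0.6003, adjusted p = 0.015) was not called with libraries rescaled to the same sum, with quantile normalization or without replicate 1 or 2 of the basal group (adjusted p of up to 0.053 without 1 library). Col4a1 and Col4a2, the chains of the common type IV trimer, fell after denervation, Col4a1 at -0.87 (adjusted p = 0.0011) and Col4a2 at -0.84 (adjusted p = 0.00034) on the log2 scale. Both also fell in immobilized WT muscle of set 2, at -0.65 (adjusted p = 0.018) and -0.55 (adjusted p = 0.018). Their genes overlap by 22 bases head to head, and all of these 4 calls were lost with the libraries rescaled to the same sum. In immobilized muscle those of Col4a1 and Col4a2 were also lost without replicate 2 of the immobilized group, and without replicate 2 of the basal group (Col4a1) or replicate 3 of the immobilized one (Col4a2), with an adjusted p of up to 0.066.

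Collagen VI forms the beaded microfilaments that anchor the basement membrane, and its alpha 1, 2 and 3 chains are mutated in congenital and Bethlem muscular dystrophies. All 4 chains measured fell after denervation (median log2 fold change -1.23) and in immobilized Sesn2SkM-Tg muscle (median -1.10), whereas 3 of 4 rose in immobilized Sesn1SkM-Tg muscle (median 0.74). In immobilized WT muscle none was called in set 1 and 1 fell in set 2, and 2 fell in Sesn1KO muscle.

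Col6a1 shows the pattern. In set 1 its basal libraries were at 36.9, 35.02, 37.6 and 29.8 in WT, 28.3, 45.7, 34.1 and 41.7 in Sesn1SkM-Tg and 54.9, 54.8, 38.3 and 52.9 in Sesn2SkM-Tg muscle. Its immobilized libraries were at 30.8, 40.8 and 46.8, 56.7, 55.4 and 85.1 and 25.4, 25.6, 20.3 and 23.2. Immobilized libraries lay all above the basal ones in Sesn1SkM-Tg muscle and all below them in Sesn2SkM-Tg muscle, with log2 fold changes of 0.79 (SE 0.18, adjusted p = 0.0027) and -1.05 (SE 0.17, adjusted p = 0.00011). In WT muscle they overlapped (0.16, adjusted p = 0.54). In set 2 Col6a1 was at 33.1, 45.2, 43.2 and 47.3 in basal, 39.9, 25.4, 30.3 and 54.5 in immobilized and 25.4, 18.9, 15.1 and 18.1 in denervated WT muscle, and the denervated libraries were all below the basal ones (-1.09, SE 0.22, adjusted p = 0.00021). In Sesn1KO muscle it went from 50.4, 54.9, 67.7 and 60.6 to 59.6, 28.7, 31.5 and 35.7 (-0.63, adjusted p = 0.027), with 1 immobilized library among the basal values. That call was lost without replicate 3 or 4 of the basal or replicate 2, 3 or 4 of the immobilized group (adjusted p of up to 0.097). It was also lost with libraries rescaled to the same sum.

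**Figure D2:**
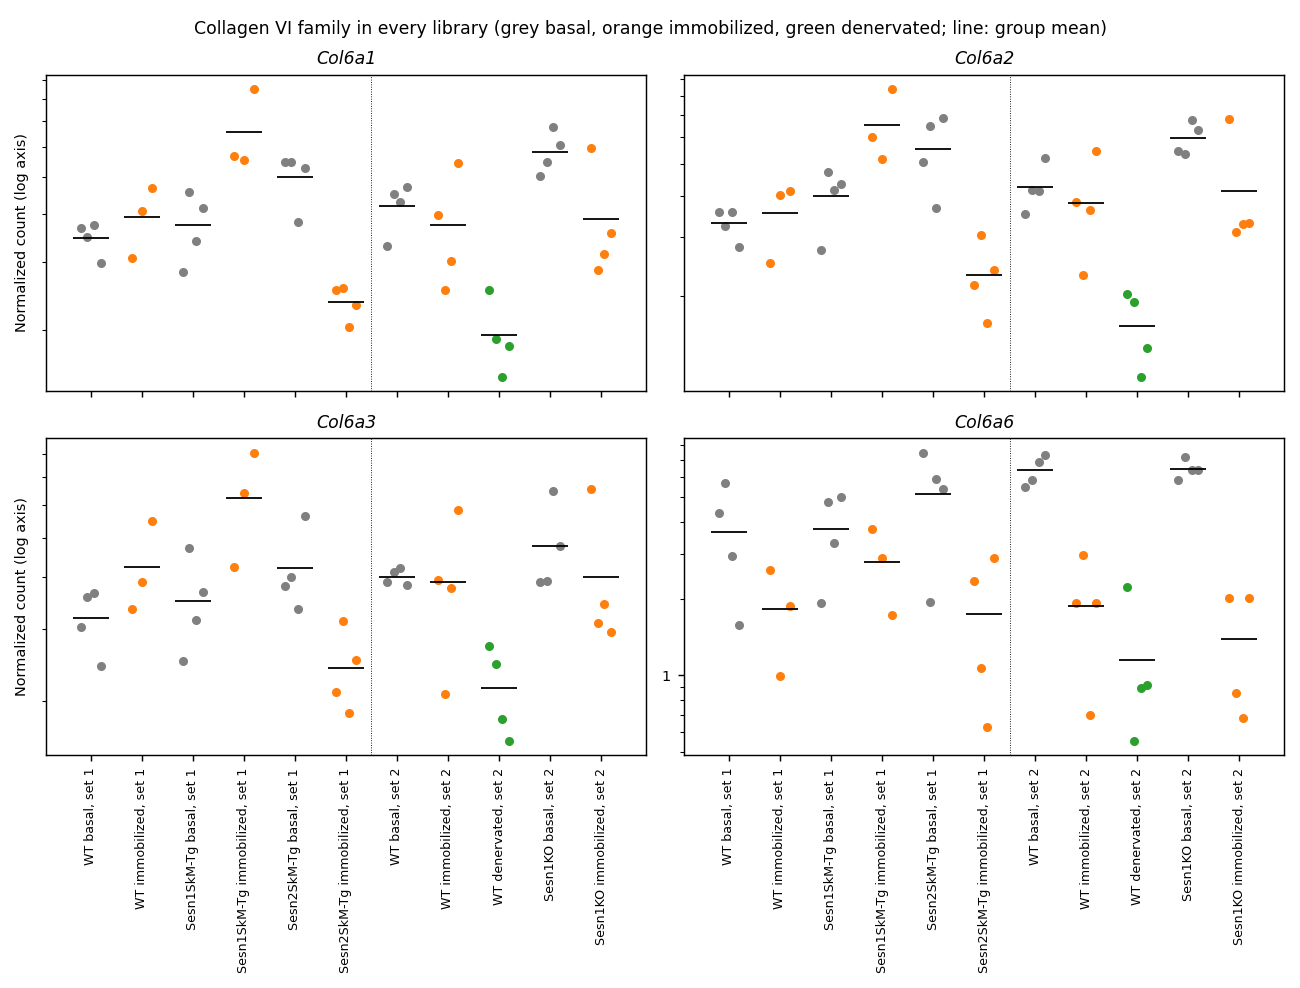
Normalized counts of 4 collagen VI genes (vertical log axes) in each library of the 11 groups (horizontal axis), with a line at each group mean. Immobilized Sesn1SkM-Tg libraries of Col6a1 lie at 55.4 to 85.1 and immobilized Sesn2SkM-Tg libraries at 20.3 to 25.6, on either side of the immobilized WT libraries at 30.8 to 46.8.

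Col6a2 had like values, at 27.4, 47.2, 41.7 and 43.5 in basal and 60.1, 51.6 and 83.8 in immobilized Sesn1SkM-Tg muscle and at 50.6, 64.7, 36.7 and 68.5 and 21.6, 30.5, 16.6 and 23.98 in Sesn2SkM-Tg muscle. Col6a6, a later-found chain that can stand in for alpha 3, did not follow the others upward. It was at 5.47, 5.84, 6.87 and 7.301 in basal WT muscle of set 2, 1.92, 2.95, 0.703 and 1.92 after immobilization and 2.22, 0.554, 0.896 and 0.92 after denervation, and no treated library reached a basal one. Its log2 fold changes were -1.83 (adjusted p = 2.4e-06) after denervation, -1.41 (adjusted p = 0.00016) after immobilization of WT and -1.68 (adjusted p = 1.8e-05) of Sesn1KO muscle (5.798, 7.16, 6.39 and 6.36 to 2.01, 0.852, 0.682 and 2.02). The change of Col6a3 in Sesn2SkM-Tg muscle (-0.78, adjusted p = 0.011) and after denervation (-0.901, adjusted p = 0.0051) lost its call with libraries rescaled to the same sum. That of Col6a2 in Sesn1SkM-Tg muscle (0.69, adjusted p = 0.028) was not called once replicate 1 of the basal or 3 of the immobilized group was left out (up to 0.18). In Sesn1SkM-Tg muscle Col6a3 was called at 0.80 (adjusted p = 0.014). That call was lost without replicate 1 of the basal or replicate 2 or 3 of the immobilized group (up to 0.11). Col6a6 in Sesn2SkM-Tg muscle (-1.16, adjusted p = 0.016) lost its call without the same replicates of its own groups (up to 0.061).

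The FACIT collagens sit on the surface of fibrils rather than forming them. Col9a1, known as a fibril-associated collagen of cartilage, was the only gene of the 59 called lower in all 5 immobilization comparisons, and it fell after denervation too. WT muscle of set 1 went from 3.21, 3.74, 1.2005 and 1.45 to 0.77, 0.325 and 0.711. In set 2 WT muscle was at 2.11, 3.096, 4.29 and 3.79 when basal, 1.21, 0.605, 1.11 and 1.68 when immobilized and 0.0635, 0.0802, 0.194 and 0.0648 when denervated. The log2 fold changes were -1.02 (adjusted p = 0.0099) and -1.003 (adjusted p = 0.0045) after immobilization and -1.95 (SE 0.26, adjusted p = 1.6e-06) after denervation. Sesn1SkM-Tg muscle went from 2.33, 3.17, 1.73 and 2.21 to 0.417, 0.263 and 0.281 (-1.33, adjusted p = 0.0012) and Sesn2SkM-Tg muscle from 3.23, 2.11, 7.02 and 4.45 to 0.575, 0.321, 0.599 and 0.135 (-1.81, adjusted p = 2.9e-05). Sesn1KO muscle went from 6.101, 7.23, 2.11 and 3.89 to 0.279, 1.19, 0.421 and 1.01 (-1.699, adjusted p = 2.4e-05). No treated library reached a basal library of its genotype and set. These log2 values understate the ratios of such low levels, because 1 is added before the logarithm.

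Col19a1, its neighbour 9.21 kb away on the other strand, rose after denervation. Its denervated libraries were at 1.85, 3.31, 1.22 and 1.23, all above the basal ones at 0.325, 0.219, 0.38 and 0.354 (1.08, SE 0.23, adjusted p = 0.0004), and immobilized WT muscle at 0.435, 0.748, 0.668 and 0.0403 was not called. Col22a1, which marks the junction of fibre and tendon, fell after denervation from 12.6, 20.4, 21.6 and 6.89 to 2.88, 0.977, 5.07 and 4.298 (-1.93, SE 0.57, adjusted p = 0.0066). In immobilized WT muscle of set 1 it fell from 33.9, 11.6, 32.8 and 11.2 to 6.65, 0.697 and 5.44 (-2.24, SE 0.56, adjusted p = 0.0054). No treated library reached a basal one in either comparison. In Sesn1SkM-Tg muscle it fell from 25.8, 25.99, 18.98 and 10.6 to 12.1, 4.08 and 1.09 (-1.97, SE 0.56, adjusted p = 0.01), with 1 immobilized library above the lowest basal one. The call of WT was lost without replicate 2 of its immobilized group (adjusted p = 0.052) and that of Sesn1SkM-Tg without replicate 3 of its own (0.11). Col20a1 rose in the 3 genotypes of set 1, with log2 fold changes of 1.06 (adjusted p = 0.00067) in WT, 1.01 (adjusted p = 0.00076) in Sesn1SkM-Tg and 0.81 (adjusted p = 0.0023) in Sesn2SkM-Tg muscle, and was not called in set 2. Col12a1 and Col16a1 were called in none of the 6 treatments.

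Col8a1, a short-chain network collagen best known from vessel walls and the cornea, rose in all 5 immobilization comparisons. WT muscle went from 4.22, 4.21, 6.197 and 1.95 to 8.404, 10.9 and 14.3 in set 1 and from 2.04, 3.603, 3.03 and 3.85 to 9.42, 3.29, 13.3 and 15.3 in set 2, where denervated libraries were at 6.899, 5.84, 4.04 and 2.93. Sesn1SkM-Tg muscle went from 3.69, 4.61, 3.33 and 3.35 to 9.39, 10.03 and 20.4, Sesn2SkM-Tg muscle from 2.97, 3.17, 2.26 and 2.91 to 11.8, 7.74, 6.59 and 10.2 and Sesn1KO muscle from 3.17, 5.08, 6.39 and 4.63 to 16.7, 19.8, 11.4 and 7.68. All immobilized libraries were above the basal ones except 1 of the WT muscles of set 2, at 3.29. The log2 fold changes of the 5 comparisons lay between 1.28 (SE 0.27) in WT set 1 and 1.52 (SE 0.27) in Sesn1SkM-Tg muscle, with adjusted p-values of up to 0.0047. That of denervation was 0.49 (adjusted p = 0.23).

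Col7a1, the chain of anchoring fibrils, fell in immobilized WT muscle of set 1, from 23.9, 21.97, 12.6 and 7.17 to 5.98, 5.64 and 5.26 (-1.26, adjusted p = 0.017). In Sesn2SkM-Tg muscle it fell from 9.29, 12.6, 23.1 and 14.1 to 5.48, 4.29, 3.503 and 9.08 (-1.26, adjusted p = 0.01), and neither pair of groups overlapped. The call of WT was lost without replicate 1 or 2 of the basal or 3 of the immobilized group (adjusted p of up to 0.069). It was also lost with libraries rescaled to the same sum. Of the other 5 collagens of this kind, Col28a1 rose in the 3 genotypes of set 1, at 0.52 in WT to 0.97 in Sesn1SkM-Tg muscle. Its WT call was lost without replicate 2 or 3 of the immobilized group (adjusted p of up to 0.078). Quantile normalization or fitting only the compared groups also ended that call. Col25a1 rose after denervation (0.66, adjusted p = 0.0088).

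Lysyl oxidase (Lox) starts the cross-linking of collagen and elastin by oxidizing lysines, and it rose in all 5 immobilization comparisons. WT muscle went from 8.49, 5.61, 7.15 and 2.203 to 32.99, 50.9 and 77.7 in set 1 and from 5.44, 5.23, 6.33 and 1.71 to 29.4, 15.3, 40.1 and 41.2 in set 2. These changes were 3.02 (SE 0.49, adjusted p = 0.0002) and 2.52 (SE 0.48, adjusted p = 0.00034). Denervated WT libraries, at 8.11, 12.03, 9.51 and 5.13, overlapped the basal ones (0.82, adjusted p = 0.15). Sesn1SkM-Tg muscle went from 7.24, 7.87, 7.25 and 3.23 to 21.5, 63.3 and 128 (3.01, SE 0.49, adjusted p = 0.00017) and Sesn2SkM-Tg muscle from 2.74, 3.45, 2.33 and 5.65 to 12.2, 30.2, 7.81 and 20.3 (1.93, SE 0.46, adjusted p = 0.003). In these 4 immobilized groups every library was above its basal group. In Sesn1KO muscle, at 2.62, 5.02, 11.4 and 9.81 when basal and 29.4, 88.6, 11.3 and 27.99 when immobilized (2.09, SE 0.48, adjusted p = 0.0016), the lowest immobilized library lay beside the highest basal one. Among the 59 genes, only Timp1 and, in Sesn1SkM-Tg muscle, Postn or, in Sesn1KO muscle, Cilp had higher log2 fold changes after immobilization.

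Its relative Loxl1, which acts on elastic fibres, rose in immobilized WT muscle of set 1, from 10.9, 8.18, 8.57 and 6.31 to 22.5, 21.5 and 34.5 (1.51, adjusted p = 0.0035), and of set 2 (1.02, adjusted p = 0.0049). After denervation it rose from 8.05, 10.9, 11.04 and 8.95 to 16.97, 17.7, 19.6 and 19.1 (0.86, adjusted p = 0.009), with no overlap in any of the 3. Loxl2 fell after denervation (-1.02, adjusted p = 0.0012).

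The small leucine-rich proteoglycans bind fibrils and set their spacing. Biglycan (Bgn), which also signals through innate immune receptors when soluble, rose in all 5 immobilization comparisons. In set 1, WT muscle went from 31.7, 30.5, 52.1 and 49.5 to 84.8, 155 and 165 (1.68, adjusted p = 0.00056), Sesn1SkM-Tg muscle from 28.4, 37.2, 35.7 and 37.9 to 101, 209.7 and 293 (2.38, adjusted p = 2.2e-05) and Sesn2SkM-Tg muscle from 30.9, 48.4, 21.4 and 30.1 to 80.5, 113, 69.1 and 90.8 (1.44, adjusted p = 0.0007). None of these pairs overlapped. In set 2, WT muscle went from 30.2, 33.5, 56.8 and 27.1 to 105, 48.3, 152 and 243 (1.701, adjusted p = 0.0022) and Sesn1KO muscle from 26.1, 32.5, 79.9 and 50.2 to 116, 99.9, 79.7 and 83.96 (1.11, adjusted p = 0.033). Here the groups overlapped, and the call of Sesn1KO muscle was lost without replicate 1 or 2 of either group (adjusted p of up to 0.12). That call was also lost with quantile normalization. Denervated libraries were at 83.4, 72.7, 36.8 and 32.05 (0.54, adjusted p = 0.26).

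Decorin rose in immobilized WT muscle of set 1 (0.88, adjusted p = 0.0073) and in Sesn1SkM-Tg muscle (1.14, adjusted p = 0.00093). It fell in Sesn1KO muscle (-0.84, adjusted p = 0.0023) and after denervation (-1.01, adjusted p = 0.00022). The call of WT was lost without replicate 3 of the immobilized group (adjusted p = 0.051). Fibromodulin (Fmod) and the tendon protein Tnmd were called in no treatment.

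Sequence before the transcription start is shown for 5 of the genes above: Bgn, Col8a1 and Col9a1, called in every immobilization comparison, and Col3a1 and Timp1, which rose in Sesn1SkM-Tg muscle and in immobilized WT muscle of set 1. The windows come from RefSeq on GRCm38.p6, end 1 base before the start, and lie at chr1:45311388-45311537 (Col3a1, plus strand), chrX:20869966-20870165 (Timp1, plus), chrX:73483451-73483600 (Bgn, plus), chr16:57754738-57754987 (Col8a1, minus) and chr1:24177360-24177609 (Col9a1, plus, before the first of 2 starts). Capitals mark matches to the letters of a core promoter motif (spelled TATAAA), the binding motif of NF-Y (CCAAT), the AP-1 motif (TGAGTCA) or the Smad element (CAGACA). They were marked at any position, and whether a match acts there was not tested. All were searched on both strands, and no marked motif overlaps another.
Col3a1: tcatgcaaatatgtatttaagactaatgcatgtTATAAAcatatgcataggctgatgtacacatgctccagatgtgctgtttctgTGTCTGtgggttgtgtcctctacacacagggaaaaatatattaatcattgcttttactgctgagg
Timp1: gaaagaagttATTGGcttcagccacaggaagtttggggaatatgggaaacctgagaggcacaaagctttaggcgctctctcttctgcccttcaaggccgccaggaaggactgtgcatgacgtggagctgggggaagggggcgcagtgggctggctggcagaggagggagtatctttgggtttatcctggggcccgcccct
Bgn: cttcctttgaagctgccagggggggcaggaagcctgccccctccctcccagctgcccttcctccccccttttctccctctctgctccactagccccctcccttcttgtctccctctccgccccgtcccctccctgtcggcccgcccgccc
Col8a1: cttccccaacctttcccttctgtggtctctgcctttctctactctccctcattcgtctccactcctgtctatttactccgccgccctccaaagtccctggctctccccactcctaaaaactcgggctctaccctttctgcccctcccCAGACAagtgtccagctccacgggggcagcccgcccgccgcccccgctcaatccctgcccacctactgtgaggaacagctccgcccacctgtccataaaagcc
Col9a1: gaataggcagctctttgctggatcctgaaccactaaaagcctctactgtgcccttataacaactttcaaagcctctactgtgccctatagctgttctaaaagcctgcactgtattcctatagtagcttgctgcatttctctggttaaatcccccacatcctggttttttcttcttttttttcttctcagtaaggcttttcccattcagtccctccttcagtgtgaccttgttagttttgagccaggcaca
Col3a1 holds TATAAA 117 bases and the reverse strand of CAGACA 65 bases before the start, Timp1 the reverse strand of CCAAT 190 bases before it, and Col8a1 CAGACA 103 bases before it. The windows printed for Bgn and Col9a1 hold none of the motifs, but the 250 bases before the other start of Col9a1, not printed, hold CCAAT. Of 32851 promoter windows of 250 bases in all, 12.4% hold TATAAA, 33.8% CCAAT, 4.46% TGAGTCA and 17.1% CAGACA. Of the 47 windows of the 42 genes described here that matched the RefSeq table, 12.8%, 29.8%, 2.13% and 23.4% do.

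The matricellular proteins modulate the contact of cells and matrix. Thrombospondin 1 (Thbs1), which can activate latent TGF-beta, had the largest rise of the 59 genes after denervation. Its values were 3.04, 2.17, 3.31 and 2.94 in basal, 49.5, 54.5, 24.2 and 12.4 in denervated and 4.204, 5.22, 43.8 and 6.51 in immobilized WT muscle. All treated libraries were above the basal ones, but of the immobilized ones only the 1 at 43.8 lay among the denervated values. The log2 fold change was 3.02 (SE 0.53, adjusted p = 5.4e-05) after denervation and 1.41 (SE 0.53, adjusted p = 0.044) after immobilization. Without that library the latter was 0.70 and no longer called (adjusted p = 0.22), and it also lost its call without any 1 of the 4 basal libraries. Thbs1 was also called in Sesn1SkM-Tg muscle, from 5.08, 5.81, 5.73 and 4.47 to 19.6, 15.9 and 66.1 (2.19, adjusted p = 0.0045), and in Sesn2SkM-Tg muscle, from 2.07, 1.08, 2.92 and 4.34 to 5.697, 26.1, 5.09 and 7.02 (1.51, adjusted p = 0.029). The first of these was lost without replicate 3 of the immobilized group (adjusted p = 0.055), and the second without replicate 1 or 2 of the basal or replicate 2 of the immobilized group (up to 0.14). Thbs4, a thrombospondin of tendon and muscle, fell after denervation, where all 4 libraries, at 15.1 to 21.6, were below the basal 47.6 to 76.9 (-1.71, adjusted p = 5.1e-05).

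Cilp, the cartilage intermediate layer protein, binds TGF-beta1 and is also made by fibroblasts (chr9:65265180-65280605). In set 2 it was at 26.7, 27.9, 15.3 and 7.36 in basal and 48.3, 21.02, 67.3 and 88.5 in immobilized WT muscle, and at 4.89, 9.01, 35.2 and 9.12 and 90.4, 44.03, 156 and 35.2 in basal and immobilized Sesn1KO muscle. Denervated libraries spread over 25.6 to 130.4, with the lowest inside the basal range. The log2 fold change was 2.52 (SE 0.58, adjusted p = 0.0016) in Sesn1KO muscle, the largest of the 59 genes there, and 1.48 (SE 0.58, adjusted p = 0.053) in WT, where it was called with replicate 2 of the basal or of the immobilized group left out (1.704 and 1.88, adjusted p = 0.047 and 0.021). It was also called there with libraries rescaled to the same sum (adjusted p = 0.033) and with only the compared groups fitted (0.019). After denervation it was 1.93 (SE 0.58, adjusted p = 0.0074). In set 1 it went from 24.8, 47.2, 75.3 and 38.02 to 30.1, 65.9 and 28.1 in WT muscle. Sesn1SkM-Tg muscle went from 23.5, 23.5, 49.9 and 14.01 to 70.8, 69.7 and 119 and Sesn2SkM-Tg muscle from 6.27, 24.6, 11.4 and 17.8 to 38.9, 13.3, 13.8 and 28.6. Only in Sesn1SkM-Tg muscle were the immobilized libraries of set 1 all above the basal ones (1.701, SE 0.46, adjusted p = 0.0074), a call lost without replicate 3 of that immobilized group (adjusted p = 0.054). The values were -0.16 (adjusted p = 0.82) in WT and 0.63 (adjusted p = 0.28) in Sesn2SkM-Tg muscle.

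**Figure D3:**
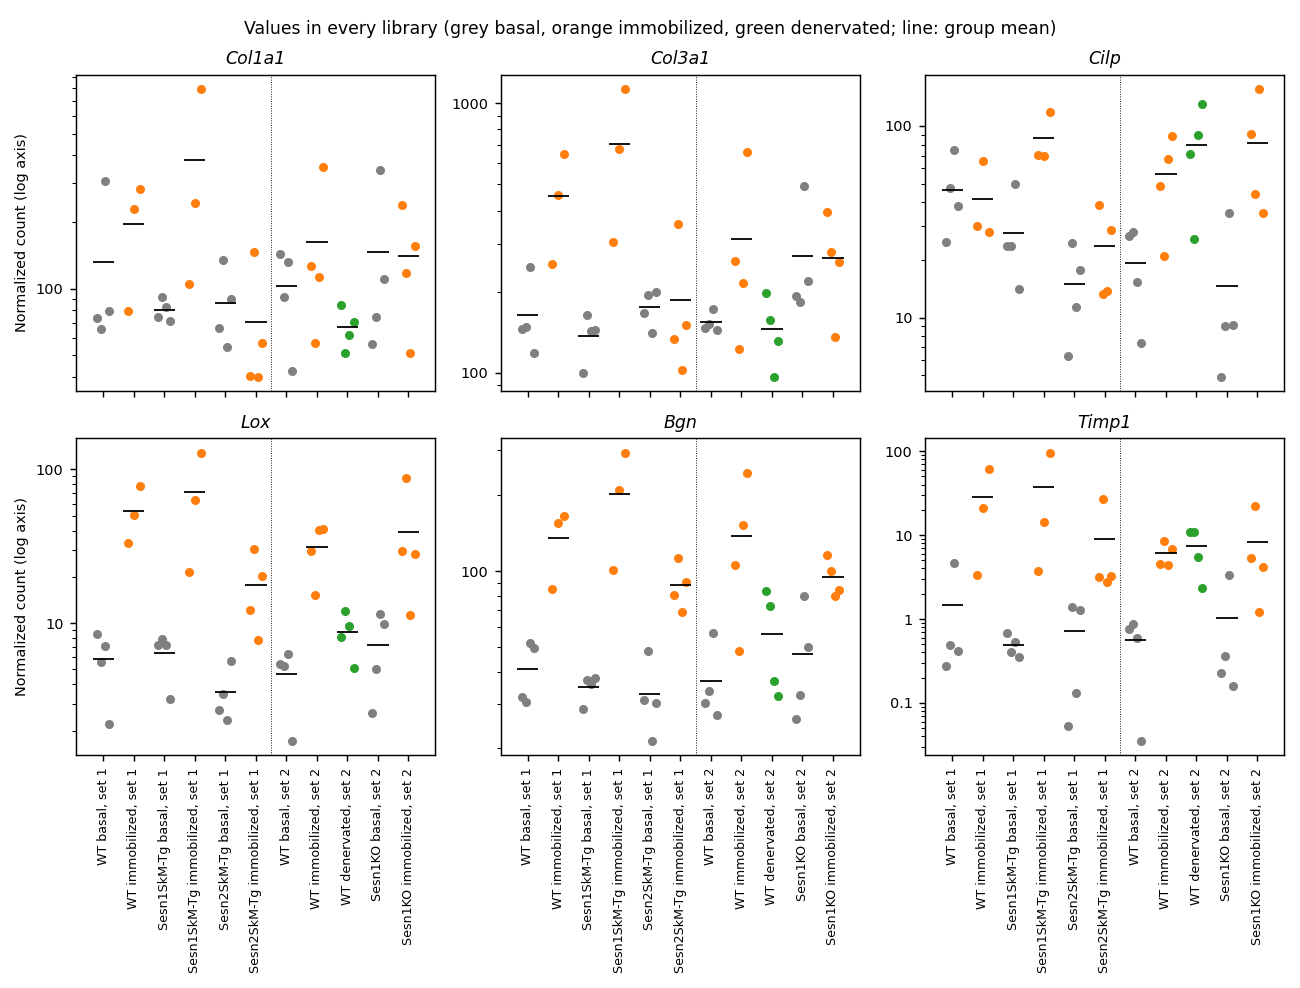
Normalized counts of Col1a1, Col3a1, Cilp, Lox, Bgn and Timp1 (vertical log axes) in each library of the 11 groups (horizontal axis), with a line at each group mean. Lox immobilized libraries lie above the basal ones in every genotype but Sesn1KO, while those of Col1a1 overlap them in every group but Sesn1SkM-Tg.

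Periostin (Postn), a matricellular protein of injured and growing matrix that varied widely between replicates, was at 7.53, 8.94, 8.62 and 5.53 in basal and 48.7, 41.3 and 230.2 in immobilized Sesn1SkM-Tg muscle, with no overlap. Its log2 fold change of 3.202 (SE 0.87, adjusted p = 0.0075) lost its call without replicate 3 of the immobilized group (adjusted p = 0.074). In WT muscle of set 1 it was at 11.7, 9.54, 163 and 10.5 and 8.94, 84.3 and 53.4 (0.68, adjusted p = 0.59), where 1 basal library exceeded all immobilized ones. Ctgf, which promotes matrix synthesis downstream of TGF-beta and stretch, rose in 4 of the 5 immobilization comparisons at 1.0996 to 1.27, but was not called in WT muscle of set 1 (0.48, adjusted p = 0.39) or after denervation (0.27, adjusted p = 0.62). Each of these 4 calls was lost without some libraries (adjusted p of up to 0.18). They were replicate 4 of the basal and 3 of the immobilized group in WT, and replicates 3 and 4 of the basal and 3 of the immobilized group in Sesn1SkM-Tg muscle. In Sesn2SkM-Tg muscle they were replicates 1, 3 and 4 of the basal and 2 and 4 of the immobilized group, and in Sesn1KO muscle replicates 1 and 4 of the basal and 1 and 2 of the immobilized group. Comp, a cartilage and tendon glycoprotein, was at 6.35, 2.21, 8.87 and 2.61 in basal and 1.29, 1.66 and 0.806 in immobilized WT muscle of set 1, all below (-1.28, adjusted p = 0.03). That call was lost without replicate 1 or 3 of either group (adjusted p of up to 0.13). It was also lost with a pseudocount of 0.1 or with libraries rescaled to the same sum. Fibronectin (Fn1) rose by 0.87 (adjusted p = 0.025) in immobilized WT muscle of set 1 and by 1.51 (adjusted p = 0.0005) in Sesn1SkM-Tg muscle, the former not without replicate 4 of the basal or 3 of the immobilized group (adjusted p of up to 0.2).

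Timp1, a secreted inhibitor of metalloproteinases that is induced in inflammation, had the largest rise of the 59 genes in immobilized WT muscle of set 1 and in Sesn1SkM-Tg muscle. WT muscle went from 0.277, 0.493, 4.68 and 0.421 to 3.34, 20.9 and 61.7 in set 1 (3.19, SE 0.87, adjusted p = 0.0093). In set 2 it went from 0.752, 0.877, 0.589 and 0.0353 to 4.51, 8.43, 4.46 and 6.84 when immobilized (2.17, SE 0.54, adjusted p = 0.0034) and to 10.9, 10.9, 5.53 and 2.36 when denervated (2.29, SE 0.54, adjusted p = 0.001). Only the groups of set 1 overlapped, through the basal library at 4.68. Sesn1SkM-Tg muscle went from 0.675, 0.4, 0.529 and 0.354 to 3.701, 14.4 and 95.4 (3.69, SE 0.87, adjusted p = 0.0029) and Sesn1KO muscle, where the groups overlapped, from 0.228, 0.367, 3.34 and 0.157 to 5.29, 22.5, 1.22 and 4.22 (1.92, SE 0.54, adjusted p = 0.0074). In Sesn2SkM-Tg muscle it went from 0.0536, 1.401, 0.13 and 1.28 to 3.15, 26.9, 2.77 and 3.29, with no overlap, but the change of 2.04 (SE 0.805, adjusted p = 0.059) was not called.

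The gelatinase Mmp2 rose in WT muscle of set 1 (1.001, adjusted p = 0.0042) and in Sesn1SkM-Tg muscle (1.39, adjusted p = 0.00028). It fell after denervation (-1.01, adjusted p = 0.0014), a call lost with libraries rescaled to the same sum. Without replicate 3 of immobilized WT muscle the calls of Timp1 (adjusted p = 0.096) and Mmp2 (0.054) in set 1 were lost. Elastin (Eln) rose in all 3 genotypes of set 1, most in Sesn2SkM-Tg muscle (1.37, adjusted p = 0.00012), and fell after denervation (-1.29, adjusted p = 1.8e-05).

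Denervation and immobilization were also compared directly in WT muscle of set 2, where 24 of the 59 genes differed, 5 higher and 19 lower in denervated muscle (38.9% of all genes called, 20.5% higher and 18.4% lower). The median log2 fold change was -0.40. Higher in denervated muscle were Thbs1 (1.61, adjusted p = 0.02), Col7a1 (1.26, adjusted p = 0.0037), Col19a1 (0.95, adjusted p = 0.0023), Timp2 (0.75, adjusted p = 0.00082), the inhibitor that also activates pro-Mmp2, and Col4a5 (0.62, adjusted p = 0.022). The largest differences the other way were those of Thbs4 (-2.43, adjusted p = 1.7e-06; 15.1 to 21.6 against 60.7 to 165), Lox (-1.703, adjusted p = 0.0071), Loxl2 (-1.23, adjusted p = 0.00038) and Bgn (-1.16, adjusted p = 0.025). Col1a1, Col3a1 and Cilp were not called, at -0.97 (adjusted p = 0.16), -0.88 (adjusted p = 0.079) and 0.45 (adjusted p = 0.57). With libraries rescaled to the same sum 15 were called, 6 higher and 9 lower, and the call of Bgn was lost. Leaving out 1 library ended the call of Thbs1 (replicate 1 or 2 of the denervated or 1, 2 or 4 of the immobilized group, adjusted p of up to 0.079), of Bgn (replicate 3 or 4 of either group, up to 0.11) and of Col4a5 (replicate 1 of either group or 4 of the immobilized one, up to 0.098). Without replicate 2 of the immobilized group Col3a1 was called, at -1.24 (adjusted p = 0.013).

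Between genotypes in the same state, few of the genes were called. By limma, 0 of the 59 were called between Sesn1SkM-Tg and WT muscle in the basal state (0.0292% of all genes called, 1 of the 59 at an unadjusted p under 0.05). After immobilization 0 were called (0.0073% of all genes, 7 of the 59 at an unadjusted p under 0.05). The median log2 fold change was then 0.43, with 54 values positive and 5 negative. Col1a1, Col3a1 and Cilp were at 0.66 (adjusted p = 1), 0.54 (adjusted p = 1) and 1.11 (adjusted p = 1) in the immobilized comparison, and at -0.38, -0.22 and -0.75 in the basal one. Basal Sesn2SkM-Tg muscle had 2 genes lower than WT (2.5% of all genes called, 1.5% higher and 1% lower). They were Thbs4, at 21.7, 34.98, 14.6 and 49.6 against 97.02, 54.4, 86.3 and 76.5 (-1.46, SE 0.299, adjusted p = 0.0092), and Cilp (-1.61, SE 0.43, adjusted p = 0.047). The libraries did not overlap for either gene. The call of Cilp was lost without replicate 1, 3 or 4 of Sesn2SkM-Tg or replicate 2 or 3 of WT muscle (adjusted p of up to 0.17), while that of Thbs4 was kept without any 1 library. Fitting only the compared groups called neither gene, and Cilp was also not called with quantile normalization or a replicate block.

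After immobilization, 4 genes were called lower in Sesn2SkM-Tg than in WT muscle (2.94% of all genes called, 1.65% higher and 1.29% lower). Of the 59 log2 fold changes 13 were positive and 46 negative, with a median of -0.48 against 0.01 for all genes. By limma 17 of the 59 had an unadjusted p under 0.05. The FACIT collagen Col14a1 was at 2.94, 3.22, 3.18 and 3.22 against 7.28, 10.9 and 9.03 (-1.27, SE 0.26, adjusted p = 0.014), and Fn1 at 29.5, 41.6, 23.96 and 42.3 against 62.96, 61.4 and 117 (-1.17, SE 0.28, adjusted p = 0.028). The others were lumican (Lum, -1.02, adjusted p = 0.044) and Col6a1 (-0.702, adjusted p = 0.043). None of the 4 overlapped between the groups. Leaving out each of the 7 libraries in turn ended the call of Lum every time and that of Col6a1 in all cases but replicate 1 of WT muscle. It ended the call of Fn1 without replicate 1 or 3 of either group and that of Col14a1 without replicate 2 of WT muscle (adjusted p of up to 0.22 over the 4 genes). Col1a1, Col3a1 and Cilp were at -1.49 (adjusted p = 0.17), -1.35 (adjusted p = 0.064) and -0.81 (adjusted p = 0.35), and Col3a1 was called without replicate 2 of Sesn2SkM-Tg muscle, at 358 (-1.73, adjusted p = 0.025).

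Between Sesn1KO and WT muscle in the basal state, none of the 59 genes was called by limma (0.147% of all genes called, 2 of the 59 at an unadjusted p under 0.05). Their log2 fold changes were positive in 49 and negative in 10, with a median of 0.25 against 0.0055 for all genes. A lack of calls with so few libraries does not show that the levels were equal. After immobilization only Eln was called (0.947% of all genes, 0.528% higher and 0.418% lower), at 14.3, 18.7, 12.8 and 10.9 in Sesn1KO against 6.69, 6.61, 6.63 and 6.39 in WT muscle (0.98, SE 0.21, adjusted p = 0.025). Its groups did not overlap, and the call was lost without replicate 1 or 2 of either group (adjusted p of up to 0.071). It was also lost with libraries rescaled to the same sum and with only the compared groups fitted. Col1a1, Col3a1 and Cilp were at -0.09 (adjusted p = 0.96), -0.05 (adjusted p = 0.97) and 0.45 (adjusted p = 0.77).

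The 2 transgenic lines were set against each other directly, a comparison added after the data were seen. In immobilized muscle 21 of the 59 genes were higher in Sesn1SkM-Tg than in Sesn2SkM-Tg muscle and 0 lower, where 5.79% of all genes were called, 2.88% higher and 2.9% lower, and the median log2 fold change was 0.89. The largest were Col1a1, with the values above (2.16, SE 0.59, adjusted p = 0.035), Cilp (1.92, SE 0.46, adjusted p = 0.019), Col1a2 (1.92, SE 0.41, adjusted p = 0.011) and Col3a1 (1.898, SE 0.398, adjusted p = 0.0095). Col6a1 had the lowest adjusted p (1.41, SE 0.18, adjusted p = 0.0003). Without replicate 2 or 3 of immobilized Sesn1SkM-Tg muscle the 4 largest lost their calls, as did Col1a1 without replicate 1, 3 or 4 and Cilp without replicate 3 of immobilized Sesn2SkM-Tg muscle (adjusted p of up to 0.21). The count was 8 without replicate 2 of immobilized Sesn1SkM-Tg, 9 without its replicate 3 and 11 without replicate 3 of immobilized Sesn2SkM-Tg muscle. In the basal state 2 genes were higher in Sesn1SkM-Tg muscle (1.79% of all genes called, 1.01% higher and 0.781% lower). Thbs4 was at 106, 117, 117 and 62.3 against 21.7, 34.98, 14.6 and 49.6 (1.799, SE 0.299, adjusted p = 0.0021). The other was Timp2 (0.54, adjusted p = 0.037), and its call was lost without any of the libraries but replicate 1 of Sesn1SkM-Tg muscle (adjusted p of up to 0.14).

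Whether immobilization acted differently between genotypes was tested as a difference of the within-genotype effects. Against WT, none of the 59 genes was called by limma for Sesn1SkM-Tg (0% of all genes; 6 of the 59 at an unadjusted p under 0.05), Sesn2SkM-Tg (0.0073%; 11) or Sesn1KO muscle (0.022%; 5). The effect on Col1a1 minus that in WT was 1.05 (SE 0.84) in Sesn1SkM-Tg, -1.14 (SE 0.81) in Sesn2SkM-Tg and -0.36 (SE 0.77) in Sesn1KO muscle. For Col3a1 these differences were 0.77, -1.49 and -0.74, and for Cilp 1.86, 0.79 and 1.04. Between the transgenic lines, Col6a1 (1.84, SE 0.25, adjusted p = 0.0024) and Col6a2 (1.899, SE 0.32, adjusted p = 0.014) were called (0.109% of all genes, 0.0584% higher and 0.0511% lower), both more positive in Sesn1SkM-Tg muscle. The call of Col6a2 was lost without replicate 3 of immobilized Sesn1SkM-Tg muscle (adjusted p = 0.05), which left 1 call, whereas 10 genes were called without its replicate 1 and 4 without replicate 2 of basal Sesn1SkM-Tg or replicate 2 of immobilized Sesn2SkM-Tg muscle. Col1a1, Col3a1 and Cilp were not called, at 2.19 (adjusted p = 0.31), 2.26 (adjusted p = 0.094) and 1.07 (adjusted p = 0.6), though Col3a1 was without replicate 1 of immobilized Sesn1SkM-Tg (2.76, adjusted p = 0.014) or replicate 2 of immobilized Sesn2SkM-Tg muscle (2.63, adjusted p = 0.028).

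The immobilization effect in WT muscle also differed between the sets, whose values appear to have been adjusted to each other. Of the 59 genes 3 were called, all lower in set 2 (6.2% of all genes, 3.16% higher and 3.04% lower). Col20a1 went from 0.67, 1.68, 0.535 and 1.37 to 3.24, 3.704 and 2.702 in set 1 and from 0.876, 3.77, 2.12 and 1.45 to 0.999, 1.44, 0.721 and 1.41 in set 2 (-1.502, SE 0.36, adjusted p = 0.0095). Eln went from 5.66, 3.88, 4.97 and 6.62 to 9.32, 12.8 and 10.3 and from 8.52, 7.24, 11.1 and 13.7 to 6.69, 6.61, 6.63 and 6.39 (-1.44, SE 0.33, adjusted p = 0.0063). For both genes all immobilized libraries were above the basal ones in set 1, and in set 2 those of Eln were all below. Decorin differed at -1.01 (SE 0.32, adjusted p = 0.049), a call that, of the fits without 1 library, was kept only without replicate 1 of basal or 2 of immobilized WT muscle of set 1, or replicate 4 of either group of set 2 (adjusted p of up to 0.15 without the others). Col1a1, Col3a1 and Cilp were not called (-0.23, adjusted p = 0.91, -0.66, adjusted p = 0.55 and 1.64, adjusted p = 0.22).

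Marker genes of the cells that make or surround the matrix also differed between the groups. In bulk muscle, fewer cells of a type and less RNA per cell cannot be told apart. Over all genes tested, 3792 of 13629 were called higher and 3775 lower after denervation. After immobilization, of 13705 genes, 2037 were higher and 1981 lower in WT muscle of set 1. These numbers were 2489 and 2267 in Sesn1SkM-Tg and 2055 and 2149 in Sesn2SkM-Tg muscle. Of 13629 genes, 2205 were higher and 2419 lower in WT muscle of set 2, and 2346 and 2708 in Sesn1KO muscle. Of 8 macrophage and leukocyte markers tested, all 8 rose in immobilized WT muscle of set 1 and in Sesn1SkM-Tg muscle, and 3, 3 and 1 rose in WT set 2, Sesn2SkM-Tg and Sesn1KO muscle. Their summed normalized counts were 44.0 to 70.7 in basal and 235 to 449 in immobilized WT muscle of set 1, 34.1 to 69.6 and 180 to 508 in Sesn1SkM-Tg and 53.0 to 69.8 and 97.0 to 279 in Sesn2SkM-Tg muscle. In set 2 they were 38.5 to 169 in basal, 131 to 260 in immobilized and 53.7 to 148 in denervated WT muscle, and 59.6 to 91.0 and 65.4 to 395 in basal and immobilized Sesn1KO muscle. Adgre1, also on this list, was not measured. The part of these markers in the matrix values was not tested.

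**Figure D4:**
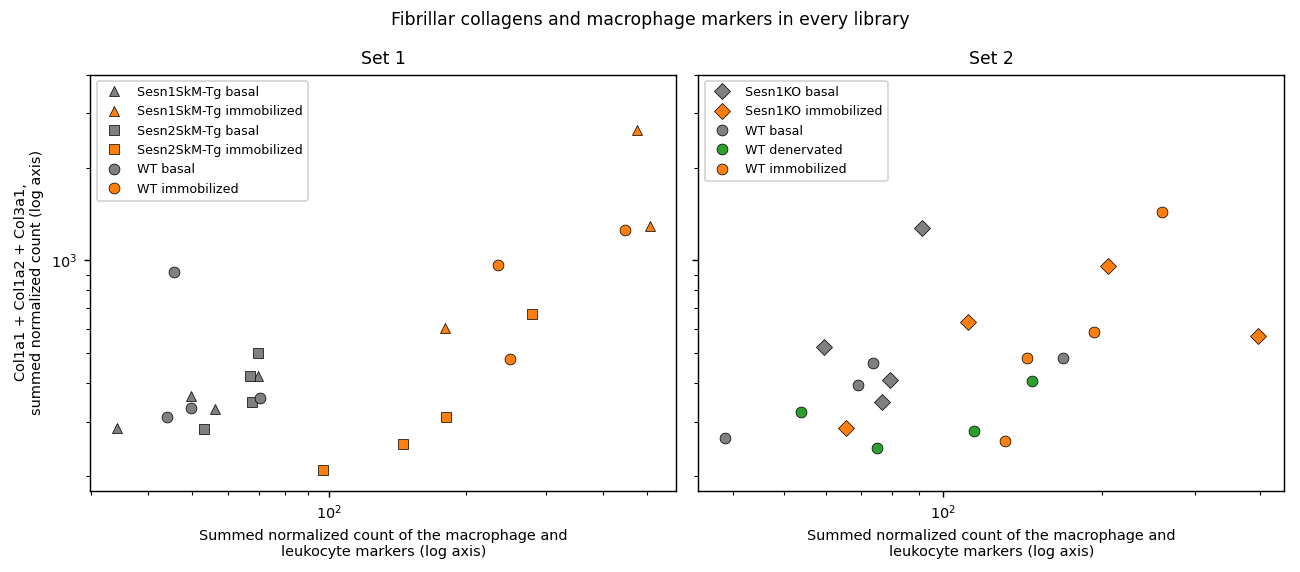
Summed normalized count of Col1a1, Col1a2 and Col3a1 (vertical log axis) against that of 8 macrophage and leukocyte markers (horizontal log axis) in every library of set 1 (left) and set 2 (right), with symbols for genotype and colours for treatment. The 3 immobilized Sesn1SkM-Tg libraries of set 1 span marker sums of 180 to 508 and reach a collagen sum of 2652, the highest of the 42 libraries.

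The 8 markers of fibroblasts and fibro-adipogenic progenitors, the main source of these collagens, all fell after denervation, from sums of 470 to 597 in basal to 231 to 344 in denervated WT muscle, beside the 23 matrix genes that fell. Of these 8, 3 rose in immobilized WT muscle of set 1, 4 in Sesn1SkM-Tg and 2 in Sesn2SkM-Tg muscle, where 1 fell. In set 2, 1 fell in immobilized WT and 5 in Sesn1KO muscle, where 12 matrix genes fell. Of 6 endothelial markers, 6 were lower after denervation, 5 in immobilized WT muscle of set 2 and 3 in Sesn1KO muscle. In set 1, 3 were higher and 1 lower in immobilized WT muscle, 4 higher in Sesn1SkM-Tg and 5 higher in Sesn2SkM-Tg muscle, where all 4 collagen VI chains fell. Of 5 mural markers, 5 were lower after denervation, 3 in immobilized WT muscle of set 2 and 1 in Sesn1KO muscle, and 2 were higher in immobilized WT muscle of set 1, 5 in Sesn1SkM-Tg and 4 in Sesn2SkM-Tg muscle. All 5 Schwann cell markers were higher in the 3 immobilized genotypes of set 1, 3 were lower after denervation and 3 in Sesn1KO muscle, and 0 were called in immobilized WT muscle of set 2. Of the 6 tendon markers tested, which include Thbs4, Fmod and Tnmd, at most 2 were called in any treatment, and of 6 muscle fibre markers 6 fell after denervation and 1 to 3 after immobilization. Of 3 satellite cell markers at most 1 was called in any treatment, and of 3 blood markers 0. Whether these cells account for the matrix values was not tested.

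How the marker sums varied with Col1a1 between the libraries of a group differed between the lists, and it is given here only as a description of libraries that share their normalization. With group means removed, r was 0.55 in set 1 (n = 22) and 0.52 in set 2 (n = 20) for macrophages and leukocytes and -0.76 and -0.61 for muscle fibres. It was higher in set 2 than in set 1 for endothelium (0.19 and 0.84), tendon (0.19 and 0.72) and blood (0.14 and 0.78). For fibroblasts (-0.43 and 0.26) and mural cells (-0.13 and 0.29) its sign differed between the sets, and it was 0.08 and 0.09 for Schwann cells and -0.21 and -0.37 for satellite cells.

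Genes of collagen folding and processing did not move one way. Of 22 such genes, 3 rose and 6 fell after denervation. Over all genes tested, 3792 of 13629 rose and 3775 fell there, so the share that fell was near that of all genes. The numbers over all genes in the other treatments are given with the cell markers above. In immobilized muscle 6 rose in WT set 1, 1 rose and 4 fell in set 2, 11 rose and 2 fell in Sesn1SkM-Tg, 3 and 3 in Sesn2SkM-Tg and 2 and 5 in Sesn1KO muscle. P4hb, the beta subunit of prolyl 4-hydroxylase, which is also protein disulfide isomerase, rose in all 6 comparisons, at 0.72 in Sesn1KO to 1.59 after denervation. Its catalytic partners P4ha1 and P4ha2 fell in 5 of them, P4ha1 at -0.82 (adjusted p = 0.00011) in immobilized WT muscle of set 2 and -0.37 (adjusted p = 0.03) after denervation. Among 13 basement membrane genes that are not collagens, 8 fell after denervation, such as nidogen 1 (Nid1; -1.09, adjusted p = 1.2e-05), and the laminin chain Lamb2 was lower in all 6 comparisons. Of the 17 or 18 proteinases and inhibitors tested, Mmp3 (stromelysin 1) rose in all 6, from 0.71 (adjusted p = 0.031) in Sesn1KO to 2.76 (adjusted p = 0.00033) in WT muscle of set 1. The membrane-bound Mmp15 fell in all 6, from -0.76 (adjusted p = 0.004) after denervation to -1.37 (adjusted p = 3.8e-05) in WT muscle of set 2. P4hb, P4ha1, P4ha2, Lamb2, Mmp3 and Mmp15 were singled out after their values were seen.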

How the data were processed

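RNAseq values of 13809 genes in 42 TA muscle libraries were used. The submitters' notes name FastQC, cutadapt 1.7.1, RSEM 1.2.20, edgeR and limma, with GRCm38. The authors deposited 1 signal value per gene and library, described as normalized counts on a linear scale. They are not divided by gene length. Only 0.183% of the values are whole numbers within 0.001 and no value is 0, so reads could not be recovered and depth is unknown. The mean of each gene was nearly equal in both sets (SD over genes 0.08 for the log2 difference, against 0.454 between the basal WT means), so values appear to have been adjusted between sets, and levels are compared only within a set. Replicates of a group correlated at 0.959 to 0.991.

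Groups followed the labels. Within each set, log2(value + 1) of genes that reached 1 in at least 1 library was fitted over all its groups with limma 3.58.1 (R 4.3.3, trended variance), the effect of immobilization in WT muscle being compared between sets in a fit of all 42 libraries. P-values were adjusted by Benjamini-Hochberg over all genes tested, and calls needed 0.05 on that scale with a log2 fold change of 0.25 or more in size. The limma steps were tested on simulated data with known changes. Named were Col1a1, Col3a1 and Cilp in every comparison, the 4 largest calls in each direction and every call where 5 or fewer were made; the other genes are given by role. The genes, role groups and marker lists were chosen with earlier results of these data known. Gene positions come from GENCODE M21 (13715 genes matched, all 59 genes described here), and 19 of the 59 share exon bases with another gene, which the unstranded libraries cannot separate. Alternatives were no filter, a pseudocount of 0.1, libraries rescaled to the same sum, quantile normalization, a fit of the compared groups only, a replicate block and leaving out each library. The comparisons between the transgenic lines were added after seeing the data. Same-numbered libraries did not deviate together throughout any group pair: in 0 of 12 were all correlations over 0.1 (range -0.45 to 0.53). The highest lay between Sesn1SkM-Tg and WT muscle, at 0.53 in basal and 0.50 in immobilized libraries. A limit that 1 low correlation can fail cannot show that no libraries were handled together. Tables and figures were made with Python 3.11.15, pandas 2.3.3, numpy 2.4.6 and matplotlib 3.10.9.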

Additional observations from a re-analysis of the deposited data

Results flagged for a closer look

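Among 21 genes in the 9 groups of 4 libraries, a single library lay far from the other 3 in 13 of 189 cases, 10 times as the highest and 3 times as the lowest value. Chance alone gives about 1 in 20 such cases. Replicate 3 of basal WT muscle of set 1 was highest in Col1a1 (307, the others 65.9 to 79.1), Postn (163, the others 9.54 to 11.7) and Timp1 (4.68, the others 0.277 to 0.493). In Sesn2SkM-Tg muscle, Postn was at 33.5 in basal replicate 2 (the others 3.95 to 4.58) and 41.7 in immobilized replicate 1 (the others 12.2 to 13.5). Timp1 was at 26.9 in immobilized replicate 2 (the others 2.77 to 3.29), Col4a3 at 2.85 in basal replicate 3 (the others 1.48 to 1.49) and Col11a2 at 0.934 in immobilized replicate 1 (the others 1.35 to 1.41). Timp1 was also at 3.34 in basal Sesn1KO replicate 3, whose group mates lay at 0.157 to 0.367. Thbs1 was at 43.8 in replicate 3 of the immobilized WT muscle of set 2 (the others 4.20 to 6.51), and Col9a1 at 0.194 in replicate 3 of denervated muscle (the others 0.0635 to 0.0802). Lox was low in replicate 4 of basal Sesn1SkM-Tg muscle (3.23, the others 7.24 to 7.87) and of the basal WT muscle of set 2 (1.71, the others 5.23 to 6.33).

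Effects of immobilization that differed between groups by limma were those of Col20a1 (-1.50), Eln (-1.44) and Dcn (-1.01), each as log2 fold change of set 2 minus set 1 in WT muscle, and of Col6a2 (1.90) and Col6a1 (1.84), as Sesn1SkM-Tg minus Sesn2SkM-Tg muscle. What lies behind any of these values was not tested.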

How the results depend on the processing

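Of 200 calls of single genes across the 20 comparisons, 0 changed direction, 112 were kept without any 1 library and 134 under each other alternative. No filter kept 199, a pseudocount of 0.1 193, quantile normalization 188, the replicate block 182, only the compared groups 171 and a rescaled sum 165. Rescaling gave 15 calls between denervated and immobilized muscle and 0 between immobilized Sesn1KO and WT muscle. Quantile normalization gave 1 call between basal Sesn2SkM-Tg and WT muscle and 4 for the difference of effects between the transgenic lines. Fits of the compared groups only gave 0 for basal Sesn2SkM-Tg against WT, 0 for immobilized Sesn1KO against WT and 11 for the immobilized transgenic lines. The cause was not tested.

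The replicate numbers were not used to pair the libraries in the main fits. With the replicate block, calls numbered 1 instead of 2 between basal Sesn2SkM-Tg and WT muscle, 2 instead of 4 after immobilization, 1 instead of 2 between the basal transgenic lines and 4 instead of 2 for their difference of effects, and 0 group pairs had every library closest to its own number.

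Leaving out 1 library at a time gave 27 to 32 calls after denervation, 9 to 22 and 9 to 17 after immobilization of WT set 1 and 2, 20 to 38 of Sesn1SkM-Tg, 16 to 19 of Sesn2SkM-Tg and 12 to 21 of Sesn1KO muscle, and 16 to 27 between denervated and immobilized muscle. Genotype comparisons gave 1 to 3 for basal and 1 to 3 for immobilized Sesn2SkM-Tg, 0 to 2 for immobilized Sesn1KO and 0 to 0 for both of Sesn1SkM-Tg, basal Sesn1KO and the 3 differences of effects against WT. The difference between sets gave 2 to 4, and the transgenic lines 1 to 2 in basal and 8 to 23 in immobilized muscle, and 1 to 10 for their difference of effects. With depth unknown, low genes such as Col9a1 and Col19a1 carry no counting error, and 3 or 4 libraries a group limit all values.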

Other observations

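Receptors through which cells hold the matrix were measured in 17 of 18 listed genes. Integrin alpha 7 (Itga7), the laminin receptor of muscle fibres, rose in all 6 treatments, from 0.44 (adjusted p = 0.013) after denervation to 1.498 (adjusted p = 1.7e-07) in immobilized WT muscle of set 2. Its partner integrin beta 1 (Itgb1) rose in all 6 as well, most in Sesn1KO muscle (1.397, adjusted p = 2.7e-07). The fibronectin receptor chain Itga5 rose in the 5 immobilization comparisons, at 1.02 in Sesn2SkM-Tg to 1.596 in Sesn1SkM-Tg muscle. Itga7, Itgb1 and Itga5 were singled out after their values were seen, and the receptors that fell are given only as counts. As a list, 5 rose and 5 fell after denervation, 5 and 1 in immobilized WT muscle of set 1, 5 and 3 in set 2, 6 and 1 in Sesn1SkM-Tg, 5 and 2 in Sesn2SkM-Tg and 4 and 4 in Sesn1KO muscle. After denervation both shares were near those of all genes tested (3792 of 13629 higher and 3775 lower). The numbers over all genes in the other treatments are given with the cell markers above.

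Of 17 genes of TGF-beta signalling, which drives collagen transcription, 10 rose and 1 fell after denervation. Over all genes tested, 3792 of 13629 rose and 3775 fell there, and the numbers in the other treatments are given with the cell markers above. Among those that rose were the receptor Tgfbr1 (2.03, adjusted p = 1.8e-12) and the repressor Tgif1 (2.47, adjusted p = 5.2e-08). In immobilized muscle, 5 rose and 0 fell in WT set 1, 3 and 1 in WT set 2, 6 and 2 in Sesn1SkM-Tg, 5 and 1 in Sesn2SkM-Tg and 6 and 2 in Sesn1KO muscle. The ligand Tgfb1 rose in the 3 genotypes of set 1, at 0.69 (adjusted p = 0.046) in WT, 1.399 (adjusted p = 0.00042) in Sesn1SkM-Tg and 0.83 (adjusted p = 0.011) in Sesn2SkM-Tg muscle, and was not called in set 2. The genes named here were singled out after their values were seen.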
